A study of Mus musculus with 2 samples.

Results

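Mir218-1 and Mir218-2 are the 2 mouse genes that encode miR-218, and each lies in an intron of a Slit gene. They were taken by name from the 1973 miRNA genes counted in midbrain of healthy mouse embryos (Mus musculus, strain B6NCrl) at 16.5 days of gestation. MicroRNA-seq, which sequences RNA inserts below 30 nt, had been done on 2 biological replicates of this 1 group. Both were made from tissue pooled over male and female embryos, with 37 embryos named for replicate 2 and no number named for replicate 1. There was no treatment, no genotype contrast and no second tissue. Replicate 1 held 6151299 sense-strand miRNA reads and replicate 2 held 5312642. Levels are given as CPM, the reads of a gene per 1000000 of these sense-strand reads. The 411 genes that reached 10 reads in each of the libraries are called detected.

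A miRNA is cut from a hairpin precursor, whose stem gives a 5p and a 3p arm, and 1 of them usually guides the repression of target mRNAs through its seed, the short stretch near its 5′ end that pairs with the target. miR-218 is known as a miRNA of motor neurons in brainstem and spinal cord, where it represses mRNAs of other neuron types. The midbrain holds the oculomotor and trochlear motor nuclei, and many other cells. Slit2 and Slit3 encode secreted ligands of Robo receptors that repel growing axons. The tables list miRNA genes only, so the mRNA markers that define motor neurons were not measured and the cell type behind the mir-218 reads was not tested. In bulk tissue, fewer cells of a type and less RNA per cell cannot be told apart.

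The mature arms are shown because they set which reads can be placed to 1 of the 2 genes. They are RefSeq sequences on GRCm38.p6, in which both genes were found, printed 5′ to 3′ with the seed (bases 2 to 8) in capitals.
miR-218-5p, from both genes: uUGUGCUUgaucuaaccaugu
miR-218-1-3p, from Mir218-1: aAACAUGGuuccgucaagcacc
miR-218-2-3p, from Mir218-2: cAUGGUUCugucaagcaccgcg
The 5p arm is the same in both genes. The 3p arms overlap over 19 bases, in which they differ by C12U, counted from the 5′ end of miR-218-1-3p. As miR-218-2-3p starts 3 bases further along, the 3p arms carry different seeds. The 5p seed is shared with 1 other annotated mouse miRNA, miR-7002-3p, and that of miR-218-1-3p with miR-496b. No other annotated miRNA carries the seed of miR-218-2-3p.

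The hairpins, with the mature arms in capitals, show how far the identity runs beyond the 5p arm.
Mir218-1: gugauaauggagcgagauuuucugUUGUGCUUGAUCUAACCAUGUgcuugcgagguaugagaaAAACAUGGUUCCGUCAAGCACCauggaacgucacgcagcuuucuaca
Mir218-2: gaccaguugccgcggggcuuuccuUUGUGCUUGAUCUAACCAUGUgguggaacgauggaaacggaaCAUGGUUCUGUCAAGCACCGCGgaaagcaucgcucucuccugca
Each hairpin is 110 bases long, and 80.6% of the positions paired in a global alignment are identical. The longest identical run is 22 bases, at positions 25 to 46 of both hairpins, and it covers the 5p arm and 1 base after it. A 5p read that starts 1 base earlier, or ends 2 bases later, has a sequence found in 1 hairpin only. Of the stretches of 18 bases in each hairpin, 5 of 93 occur in both hairpins, and none of 23 bases does. Among 1005 mouse hairpins searched on both strands, none outside this pair held a stretch of 18 bases of either. In the GENCODE M21 transcripts, miR-218-5p occurred in both mir-218 genes and in no other gene on either strand, and each 3p arm occurred in its own gene only. Introns and intergenic sequence were not searched.

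**Figure D1:**
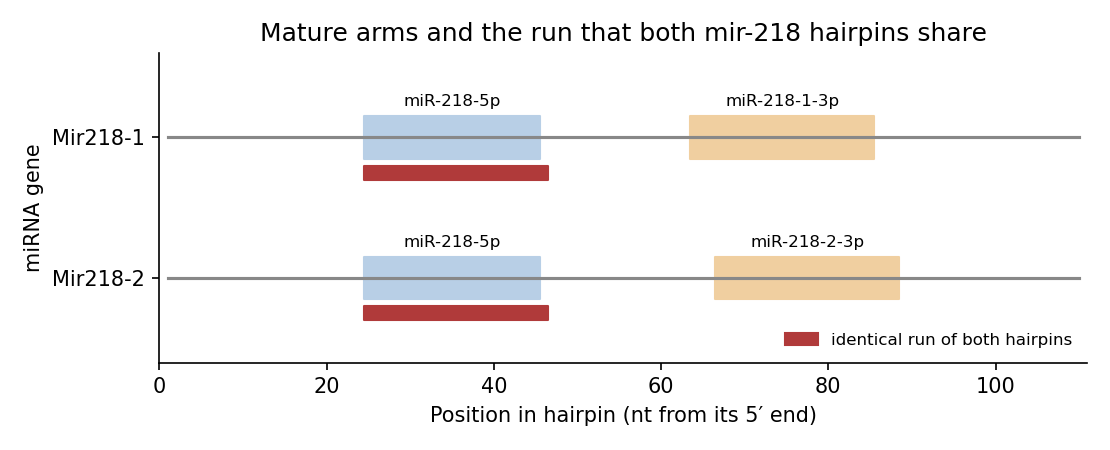
Position along the hairpin in nt from its 5′ end (x axis) for each gene (y axis); blue boxes are the 5p arm, orange boxes the 3p arms, and the red bars the longest identical run. The run of 22 bases covers the whole of miR-218-5p in both genes, and the 3p arms lie outside it.

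Both genes are intronic and on the strand of their host. Mir218-1 (ENSMUSG00000065603.1) lies at chr5:48223942-48224051 on the plus strand of mm10, in Slit2. Mir218-2 (ENSMUSG00000065583.1) lies at chr11:35616816-35616925 on the plus strand, in Slit3. In the protein-coding transcript of each host with the greatest exon length, with 36 exons in both, the miRNA gene is in intron 14 of 35. Intron 14 of Slit2 is 4572 bases long, with Mir218-1 3861 bases after its start and 601 bases before the next exon. In Slit3 it is 9571 bases long, with Mir218-2 4379 bases after its start and 5082 bases before the next exon. The same intron number therefore holds the miRNA gene in both hosts, at different distances to the exons.

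Few reads were counted to either gene. Mir218-1 had 151 reads in replicate 1 and 122 in replicate 2. This was 24.5 CPM (95% exact Poisson interval 20.8 to 28.8) and 22.96 CPM (19.1 to 27.4). Its mean was 23.8 ± 1.12 CPM (SD, n = 2). Mir218-2 had 231 reads in replicate 1 and 182 in replicate 2. This was 37.6 CPM (32.9 to 42.7) and 34.3 CPM (29.5 to 39.6), with a mean of 35.9 ± 2.33 CPM (SD, n = 2). Mir218-2 was the higher gene in both libraries, and the ranges of the 2 genes did not overlap. The intervals cover counting error only. The SDs were below the counting error of a single library, which was 2.00 to 2.08 CPM for Mir218-1 and 2.47 to 2.54 CPM for Mir218-2.

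Together the 2 genes held 62.1 CPM in replicate 1 and 57.2 CPM in replicate 2, or 0.00621% and 0.00572% of sense miRNA reads. No read of either library was counted on the strand opposite to either gene, which allows up to 0.488 CPM in replicate 1 and 0.565 CPM in replicate 2 (3 reads). Reads that mapped to several places have a row of their own in the tables, with 4816290 in replicate 1 and 4391928 in replicate 2 over all genes. How they were defined is not stated in the sources used here, and the gene counts are taken, from that layout, as reads placed to 1 gene. A read that is miR-218-5p from end to end matches both hairpins. How many such reads there were was not tested, since the tables give that row as 1 number per library. If such reads were left out of the gene counts, the levels, ratios and shares given here are no measure of all miR-218.

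In counted reads, Mir218-2 exceeded Mir218-1 by similar factors in both libraries. There were 1.53 reads of Mir218-2 for each read of Mir218-1 in replicate 1 (95% exact interval 1.24 to 1.89) and 1.49 in replicate 2 (1.18 to 1.89), a mean of 1.51 ± 0.027 (SD, n = 2). Against equal reads, the two-sided exact binomial test within each library gave adjusted p = 0.0001 for replicate 1 and 0.00069 for replicate 2 (Benjamini-Hochberg over these 2 tests). These tests cover counting error only. With n = 2 on each side, the smallest two-sided p of an exact unpaired permutation test is 0.333. Both genes were counted in the same 2 libraries, a pairing that this limit does not use. As both hairpins have the same length, length does not enter the ratio. Whether the ratio holds for reads that match both hairpins was not tested.

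The share of mir-218 reads counted to Mir218-1 was 39.5% in replicate 1 (95% Clopper-Pearson interval 34.6 to 44.6) and 40.1% in replicate 2 (34.6 to 45.9). The shares differed by 0.603 percentage points. Fisher's exact test, two-sided, did not call a difference between the libraries (p = 0.876, odds ratio 0.975, 95% interval 0.709 to 1.34). A shift between the copies within that interval was not detectable at this depth.

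Neither gene was called different between the libraries. For Mir218-1 the log2 ratio of replicate 2 over replicate 1 was -0.10 (95% exact interval -0.45 to 0.26, adjusted p = 0.779). For Mir218-2 it was -0.13 (-0.42 to 0.15, adjusted p = 0.526). Both adjusted p-values are from the two-sided exact binomial test over all 411 detected genes. Of these, 195 were called at an adjusted p below 0.05 (47.4%), 120 higher in replicate 1 and 75 in replicate 2. The test covers counting error only, and with edgeR's exact test at a BCV of 0.2, an assumed spread between pools, 5 genes were called and both mir-218 genes had an adjusted p of 1. Among the 76 detected genes from 11.9 to 71.8 CPM, a range of levels around the mir-218 genes, 23 were called (30.3%). At its read number, the exact binomial test would have called Mir218-1 from a 1.34-fold difference and Mir218-2 from a 1.27-fold difference. The median size of the log2 ratio was 0.21 over the 76 genes and 0.18 over all detected genes, so both mir-218 genes lay below the median size. The binomial test compares the 2 libraries and no conditions.

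**Figure D2:**
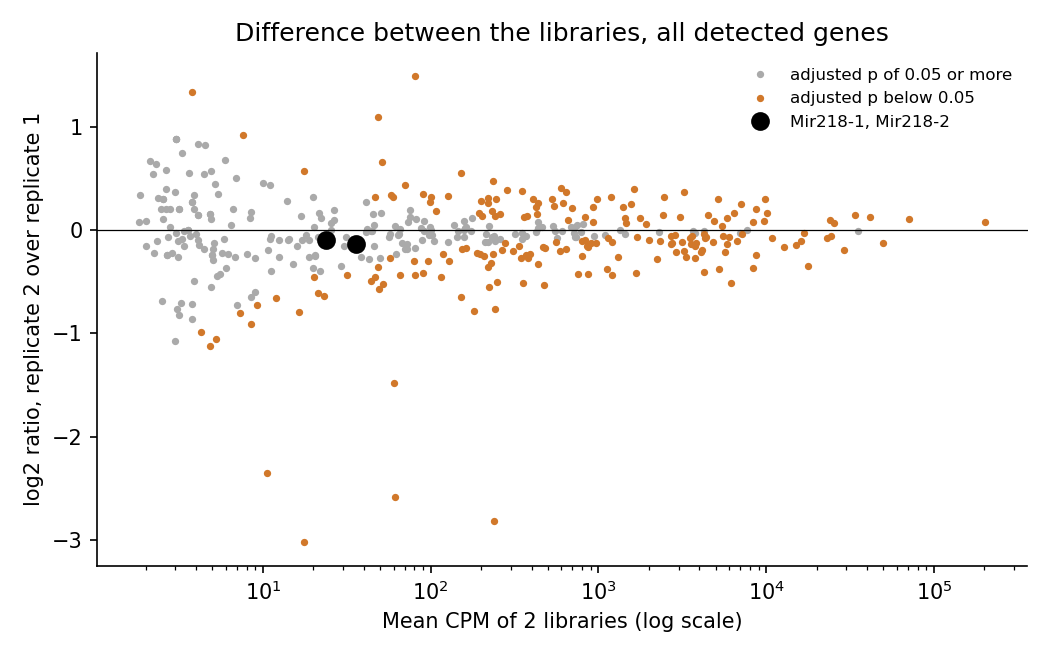
Mean CPM of the 2 libraries on a log scale (x axis) against the log2 ratio of replicate 2 over replicate 1 (y axis) for the 411 detected genes, with genes at an adjusted p below 0.05 in orange. The mir-218 genes (black) sit at -0.10 and -0.13, just below the line of no difference.

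By mean level Mir218-2 was gene 267 and Mir218-1 gene 277 of the 411 detected, with 9 genes between them. Both were below the median detected gene, which stood at 108 CPM. The genes nearest to Mir218-1, by the distance of log2(CPM + 1) over the 2 libraries, were Mir26a-2 (25.4 ± 0.036 CPM), Mir8112 (25.5 ± 0.91) and Mir3080 (22.2 ± 1.31), at distances of 0.15, 0.18 and 0.20. Those nearest to Mir218-2 were Mir450b (34.3 ± 1.39 CPM), Mir493 (38.7 ± 4.88) and Mir152 (31.4 ± 0.95), at 0.10, 0.17 and 0.27. In both libraries, the means of these neighbours other than Mir152 lie within the counting interval of the mir-218 gene they neighbour, so their order is not resolved at this depth. The mean of Mir152 lies within the Mir218-2 interval of replicate 2 and below that of replicate 1. Mir26a-2, an intronic gene of Ctdsp2, also shares its 5p arm with another gene, Mir26a-1.

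**Figure D3:**
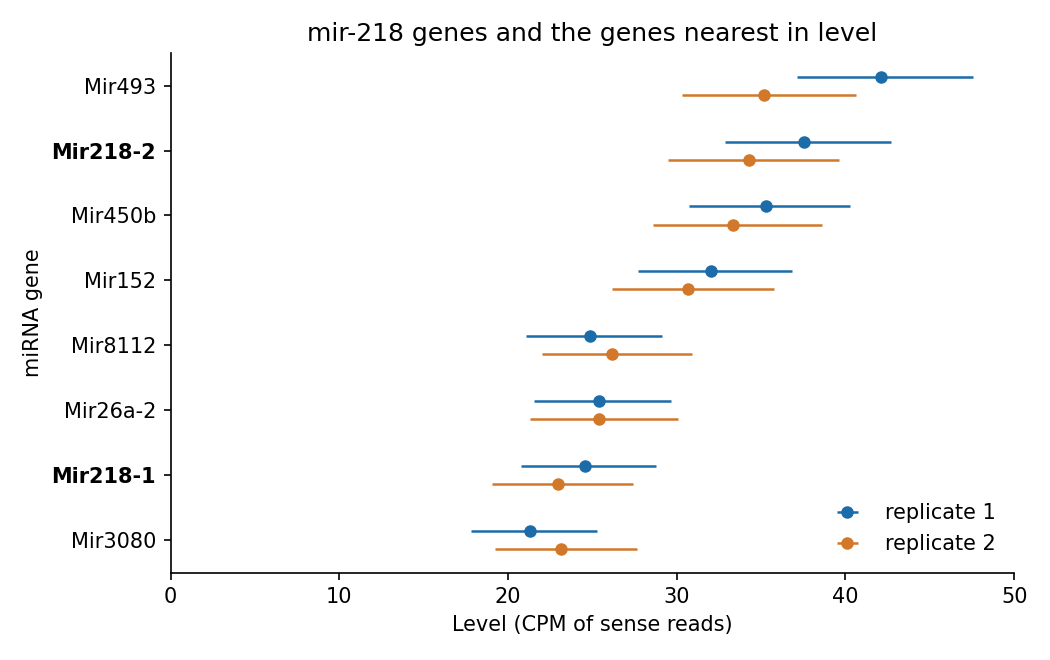
Level in CPM (x axis) of the mir-218 genes (bold) and of the 3 genes nearest to each (y axis); points are single libraries and bars 95% exact Poisson intervals. Mir218-1 lies at 24.5 and 22.96 CPM and Mir218-2 at 37.6 and 34.3 CPM, and the intervals of neighbours overlap.

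The mir-218 genes stood below most genes of the brain and neuron list, of which they are no part. It had 29 genes in the tables, of which 25 were detected with a median of 616 CPM and 23 were above both mir-218 genes. It was led by Mir149 at 25498 ± 892 CPM and Mir181c at 16141 ± 782. In counted reads, below both mir-218 genes lay Mir124a-1 (5.04 ± 0.47 CPM) and Mir124a-2 (3.86 ± 0.40), and the undetected Mir124a-3, Mir9-2, Mir876 and Mir344. How many reads of these genes mapped to several places was not tested. Their low counts are thus no measure of how much of their mature miRNAs the tissue held. The Hox cluster list, whose genes mark hindbrain and spinal cord and in which 4 of 6 genes were detected, summed to 1190 CPM in replicate 1 and 1218 CPM in replicate 2. That was 19.2 and 21.3 times the mir-218 sum, and it was carried by Mir10a (720 ± 12.5 CPM) and Mir10b (438 ± 18.3). The muscle list summed to 40.8 and 38.8 CPM, below the mir-218 sum in both libraries. Mir206, of skeletal muscle, stood at 17.95 ± 0.36 CPM and Mir208b at 15.9 ± 1.19, and no read was counted to Mir1a-1, Mir133a-1 or Mir133a-2. Whether reads of these 3 genes mapped to several places was not tested. A count of 0 therefore does not show that their miRNAs were absent, and the muscle sum has the same limit. The sums in replicates 1 and 2 were 34022 and 35311 CPM for vessel and mesenchyme (7 of 8 genes detected, led by Mir126a and Mir143) and 3648 and 3517 for choroid plexus and eye (5 of 5, Mir204 and Mir183). They were 1327 and 689 for epithelium (7 of 7, Mir203 and Mir429) and 410 and 487 for blood (4 of 4, Mir451a and Mir223). The part of any of these tissues in the mir-218 reads was not tested.

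**Figure D4:**
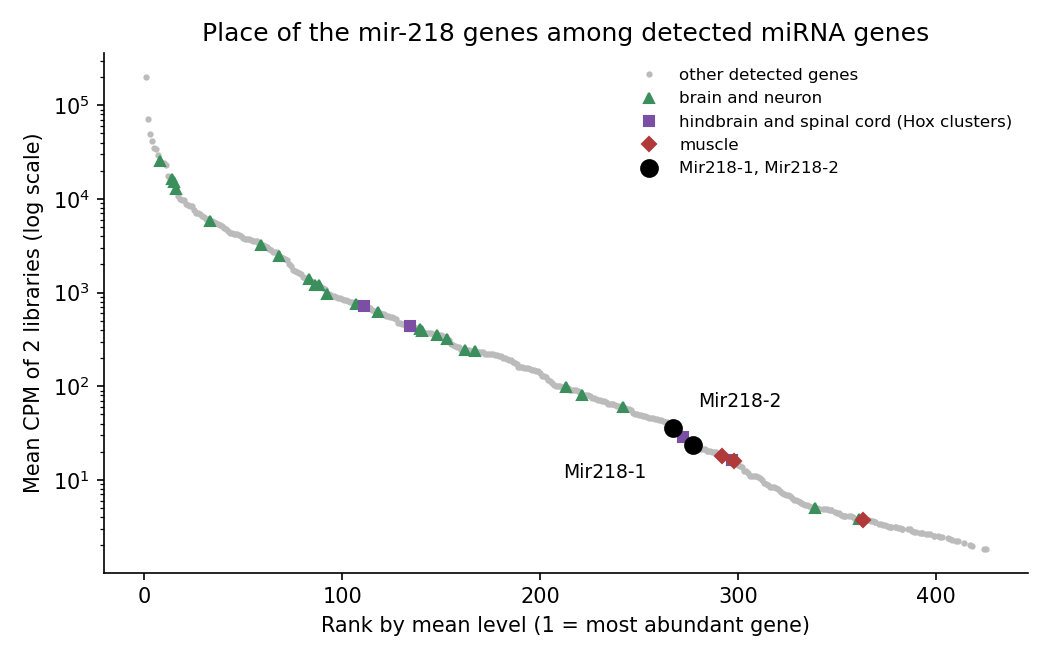
Rank by mean level (x axis) against mean CPM on a log scale (y axis) for the detected miRNA genes, with the brain and neuron, Hox and muscle lists in colour. Mir218-2 and Mir218-1 (black) stand at ranks 267 and 277, below 23 genes of the brain and neuron list. The highest muscle gene, Mir206, stands below both at rank 292.

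Other miRNA genes also lie in introns of related host genes, and these were set beside the mir-218 pair. Mir128-1 and Mir128-2, in introns of R3hdm1 and Arpp21, stood at 2456 ± 387 and 1398 ± 155 CPM. They share miR-128-3p and a run of 23 bases, and so resemble the mir-218 pair in layout at far higher counted levels. In the Ctdsp hosts Mir26a-1 (6.16 ± 0.72 CPM, Ctdspl) and Mir26a-2 share miR-26a-5p and a run of 25 bases, whereas Mir26b (16696 ± 175, Ctdsp1) shares no mature arm with another hairpin. In the Pank hosts Mir103-1 (3.78 ± 0.51 CPM, Pank3) and Mir103-2 (45.8 ± 1.28, Pank2) share miR-103-3p and a run of 27 bases. Mir107 (2408 ± 173, Pank1) shares no whole arm, but it has a run of 24 bases in common with each of them. The counted levels thus ran over a wide range within 1 host family. The mir-218 genes have no other copy with arms of its own to set beside them. The remaining detected genes of the list were Mir153 in Ptprn2 (5868 ± 388 CPM), Mir33 in Srebf2 (114 ± 24.9), Mir208b in Myh7 and Mir499 in Myh7b (3.78 ± 0.51). Mir153 and Mir33 share no arm, and neither has a second copy in a related host on the list. Mir208a in Myh6 was not detected, with 9 and 8 reads. Of all matched miRNA genes within a protein-coding gene of their strand, 208 of 854 were detected (24.4%, median 53.7 CPM), against 203 of 1040 outside one (19.5%, median 198 CPM). Both mir-218 genes were below either median.

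Counted reads were also set out by whether a gene shares its arms. Mature arms were found for 916 of the 1973 genes, and the other genes are in no class. Over all 1973 genes, 411 were detected. By RefSeq's mature arms, 53 genes shared some but not all of their arms with another hairpin, as the mir-218 genes do. Of these, 39 were detected (73.6%), with a median of 233 CPM, and 25 stood above Mir218-2 and 27 above Mir218-1. Of 816 genes that shared no arm, 315 were detected (38.6%), with a median of 127 CPM. Of 47 genes that shared every arm, 16 were detected (34.0%), with a median of 157 CPM. These medians leave out the genes below the detection limit. The classes hold different genes, and whether a shared arm lowered the count of any gene was not tested.

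In counted reads, the copies of mir-218 were among the more even pairs. There were 14 mature arms shared by exactly 2 detected genes of the partly shared kind. From the most even pair to the least, the higher copy exceeded the lower 1.23 ± 0.12 times for miR-135a-5p and 135 ± 11.8 times for miR-181b-5p. miR-218-5p followed at 1.51 ± 0.027 times, after miR-30c-5p at 1.42 ± 0.15 and before miR-138-5p at 1.58 ± 0.027. The factors of miR-30c-5p, miR-138-5p, miR-7a-5p (1.72 ± 0.079) and miR-128-3p (1.75 ± 0.083) lie within the counting interval of the mir-218 factor in both libraries, so their order is not resolved. That of miR-135a-5p lies within the interval of replicate 2 (1.18 to 1.89) and just below that of replicate 1 (1.24 to 1.89). In the summed level of both copies, mir-218 was number 11 of the 14 at 59.7 ± 3.45 CPM. The pairs shared runs of 22 to 28 bases, and mir-218 was 1 of 3 at the lower end, with miR-92a-3p and miR-194-5p, whose copies differed 23.4 ± 2.22 and 26.8 ± 1.27 times. What set the evenness of any of these pairs was not tested.

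**Figure D5:**
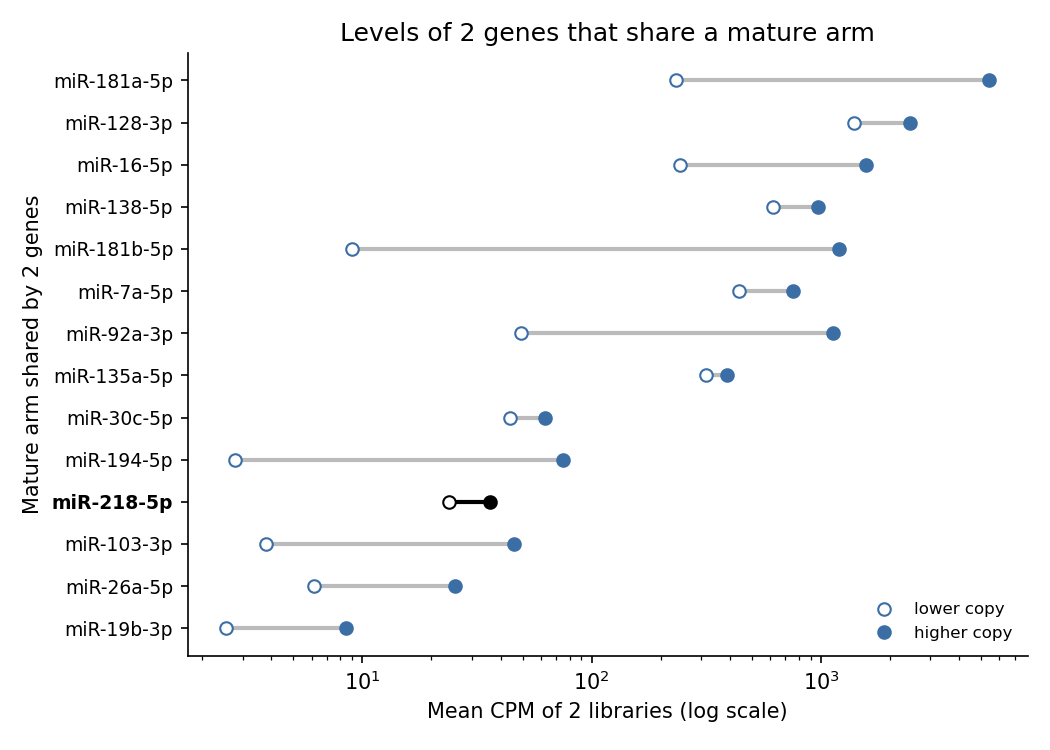
Mean CPM on a log scale (x axis) of the lower (open) and the higher (filled) of 2 genes that share a mature arm, for 14 arms (y axis) ordered by summed level. The mir-218 pair (black) joins 23.8 and 35.9 CPM, a short line low in the order.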

How the data were processed

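Each library had its own deposited table of unnormalised read counts by miRNA gene, made by the authors on mm10 with GENCODE M4, per the file headers. Which aligner, counter and trimming made them is not given in the sources used here. The rows that name no gene held 54.9% and 55.8% of reads in replicates 1 and 2 and stayed out of CPM, which were computed from the sense-strand column. Names and places came from GENCODE M21 (same assembly), in which 1894 of 1973 gene identifiers matched. Replicates were compared by exact binomial tests on genes with 10 or more reads in both libraries, with Benjamini-Hochberg adjustment. The median sizes of log2 ratios over genes, the plotted ratios and those under other settings have 0.5 reads added to each count. TMM and RLE factors and an exact test at a fixed BCV of 0.2 came from edgeR 4.0.16 (R 4.3.3). The tests were tested on simulated data. Python 3.11.15, scipy 1.17.1 and Biopython 1.88 did the rest. The genes, lists and named-gene rule (both mir-218 genes, 3 nearest genes each, detected genes of related hosts, 2 leading genes per list) were chosen with earlier results of these data known. The comparisons of shared arms and of pairs of copies, and the names of the low brain and neuron genes, were added after the counts were seen. List entries Mir9-1, Mir142 and Mir1a-2 were not analysed here. The libraries are labelled biological replicates, from pools of embryos, so p-values measure the difference between 2 pools only.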

Additional observations from a re-analysis of the deposited data

How the results depend on the processing

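With all reads of a library as denominator, Mir218-1 stood at 10.6 CPM and Mir218-2 at 16.0 CPM, since that total includes reads counted to no gene. Under the TMM and RLE factors and with reads on either strand, both levels moved by less than 1 SD. Without replicate 1 or replicate 2 they ranged from 22.96 to 24.5 CPM for Mir218-1 and from 34.3 to 37.6 CPM for Mir218-2, and the share of Mir218-1 from 39.5% to 40.1%. In 7 settings each, the log2 ratio between the libraries ran from -0.13 to -0.05 for Mir218-1 (adjusted p from 0.661 to 1) and from -0.16 to -0.08 for Mir218-2 (0.380 to 1). Over all genes 195 were called, but 5 once edgeR's exact test took a BCV of 0.2 as the spread of pools. The other settings called 185 to 207. No paired analysis between groups was possible because there was 1 group. At this depth the exact binomial test, which covers counting error only, would have called Mir218-1 and Mir218-2 from 1.34-fold and 1.27-fold differences, and the limit at a BCV of 0.2 was not computed.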
